A study of Mus musculus with 10 samples.

Results

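Receptors and bridges for dying cells, 10 genes in all, were followed in mouse peritoneal cavity macrophages. They are the TAM receptor tyrosine kinases Tyro3, Axl and Mertk, the TAM ligands Gas6 and Pros1, the phosphatidylserine receptors Timd4, Stab1 and Cd300lf, the bridging protein gene Mfge8 and the endocytic receptor gene Lrp1. Each was found by matching the Ensembl identifiers of the count table to gene symbols, and all 10 were present among the 22165 genes listed.

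The question of the study is how macrophages clear dying cells. Polyadenylated RNA was sequenced from cells that had been sorted with antibodies to CD64, ICAM-2 and CD115. The 4 groups compared were of C57BL/6 mice. Knockout mice carried LysM-Cre with a floxed gene and had received IL-4 bound to an anti-IL-4 antibody (IL-4 knockout, 3 libraries) or saline (basal knockout, 2 libraries). Mice with the same floxed alleles and no Cre, which another label calls WT, had received the same IL-4 complex (IL-4 wild type, 3 libraries) or saline (basal wild type, 2 libraries). Cells were taken 36 hours after injection. LysM-Cre is Cre recombinase driven from the Lyz2 locus in myeloid cells, so cells of other lineages keep the floxed gene, and an effect of Cre and one of the deletion cannot be told apart here. The labels do not say whether replicates came from separate animals, and the tests therefore weigh differences against a spread among samples that may be technical.

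A dying cell shows phosphatidylserine on its outer surface. Macrophages bind this lipid either directly, with receptors such as TIM-4 (Timd4), stabilin-1 (Stab1) and CD300f (Cd300lf), or through secreted bridges. GAS6 and protein S (Pros1) link the lipid to the TAM kinases, MFG-E8 links it to integrins, and LRP1 takes up cells that carry calreticulin and also serves many other ligands. Resident peritoneal macrophages are known for high TIM-4 and MerTK, and both proteins take part in their uptake of apoptotic cells.

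Library totals ranged from 8762403 to 15024073 counts. Lyz2, the locus of the Cre driver, differed widely between the basal knockout libraries (2664 and 9675 CPM, counts-per-million units scaled with TMM factors) and was 23600 and 21903 CPM in the basal wild-type ones. Every macrophage identity marker listed was found in all 4 groups, among them Csf1r, which encodes CD115 (group means from 269 to 311 CPM), Icam2 (387 to 994 CPM) and Fcgr1, which encodes CD64 (10.1 to 35.7 CPM). Of the 10 listed, 3 were lower with IL-4 in wild-type cells (2.80% of all genes) and 1 in knockout cells (3.51% of all genes). Fcgr1 fell to 10.1 CPM in IL-4 knockout, against 24.7 CPM in basal knockout libraries (log2 -1.29 ± 0.29, adjusted p = 0.0128), and to 10.4 CPM in IL-4 wild-type, against 35.7 CPM in basal wild-type libraries (log2 -1.78 ± 0.29, adjusted p = 0.00221). Icam2 fell to 411 CPM in IL-4 wild-type, against 994 CPM in basal wild-type libraries (adjusted p = 0.0214), and Lyz2 fell there as well (adjusted p = 0.0123). Without IL-4, Lyz2 was lower in knockout than in wild type (adjusted p = 0.0249), and only the knockout groups carry Cre driven from that locus. The part of these shifts in the IL-4 changes of the 10 genes was not tested.

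Genes of other cell types differed between the groups. The summed level of 10 B cell markers ranged from 652 to 735 CPM in IL-4 knockout, 587 to 690 CPM in IL-4 wild-type, 1562 to 1894 CPM in basal knockout and 248 to 423 CPM in basal wild-type libraries, and none of the 10 was at 0 in a group. The 9 T and NK cell markers present summed to 22.5 to 27.1 CPM in IL-4 knockout, 23.6 to 29.0 CPM in IL-4 wild-type, 98.0 to 103 CPM in basal knockout and 22.0 to 38.9 CPM in basal wild-type libraries, where Klrb1c was at 0. Cd2 alone averaged 83.4 CPM in basal knockout libraries and 20.2 to 20.9 CPM in the other groups, and it was the only one of 8 tested markers of this list that passed for genotype without IL-4. Without Cd2 the other 8 summed to 15.7 to 18.5 CPM in basal knockout and 8.40 to 11.9 CPM in basal wild-type libraries. They summed to 1.69 to 8.12 CPM in IL-4 knockout and 4.31 to 7.62 CPM in IL-4 wild-type libraries. The mean of Cd3g in basal knockout libraries was below that in basal wild-type libraries (5.96 CPM). The 8 mast cell markers summed to 35.7 to 44.1 CPM in IL-4 knockout, 37.2 to 50.4 CPM in IL-4 wild-type, 186 to 313 CPM in basal knockout and 82.5 to 132 CPM in basal wild-type libraries. Hdc made up most of the sum outside the basal knockout pair and was highest in basal wild-type libraries, at a mean of 79.6 CPM. The other 7 mast cell markers summed to 1.52 to 2.92 CPM in IL-4 knockout, 2.68 to 3.99 CPM in IL-4 wild-type, 156 to 259 CPM in basal knockout and 26.8 to 28.3 CPM in basal wild-type libraries. Thus the basal knockout libraries were the highest for all 3 lists. The 8 markers of dendritic cells and small peritoneal macrophages, mostly Ccr2 except in the basal knockout pair, summed to 703 to 823 CPM in IL-4 knockout, 849 to 858 CPM in IL-4 wild-type, 298 to 416 CPM in basal knockout and 109 to 202 CPM in basal wild-type libraries. Without Ccr2 the other 7 were highest in the basal knockout pair, at 159 to 229 CPM, where Napsa alone averaged 142 CPM. They summed to 85.5 to 95.3 CPM in IL-4 knockout, 62.1 to 89.9 CPM in IL-4 wild-type and 42.4 to 47.8 CPM in basal wild-type libraries. The 8 neutrophil markers summed to 128 to 180 CPM in IL-4 knockout, 189 to 230 CPM in IL-4 wild-type, 177 to 251 CPM in basal knockout and 253 to 351 CPM in basal wild-type libraries, and most of each group's mean sum was Csf3r. Without Csf3r the other 7 ranked the groups differently, with 19.2 to 28.4 CPM in IL-4 knockout, 81.6 to 92.5 CPM in IL-4 wild-type, 31.6 to 47.5 CPM in basal knockout and 11.7 to 31.0 CPM in basal wild-type libraries. Mesothelial and fibroblast markers were near 0, with a highest sum of 4.57 CPM over 12 genes and with Msln, Upk3b, Wt1, Krt19 and Pdgfra at 0 in every group. In bulk samples such as these, fewer cells of a type and less RNA per cell cannot be told apart.

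**Figure D1:**
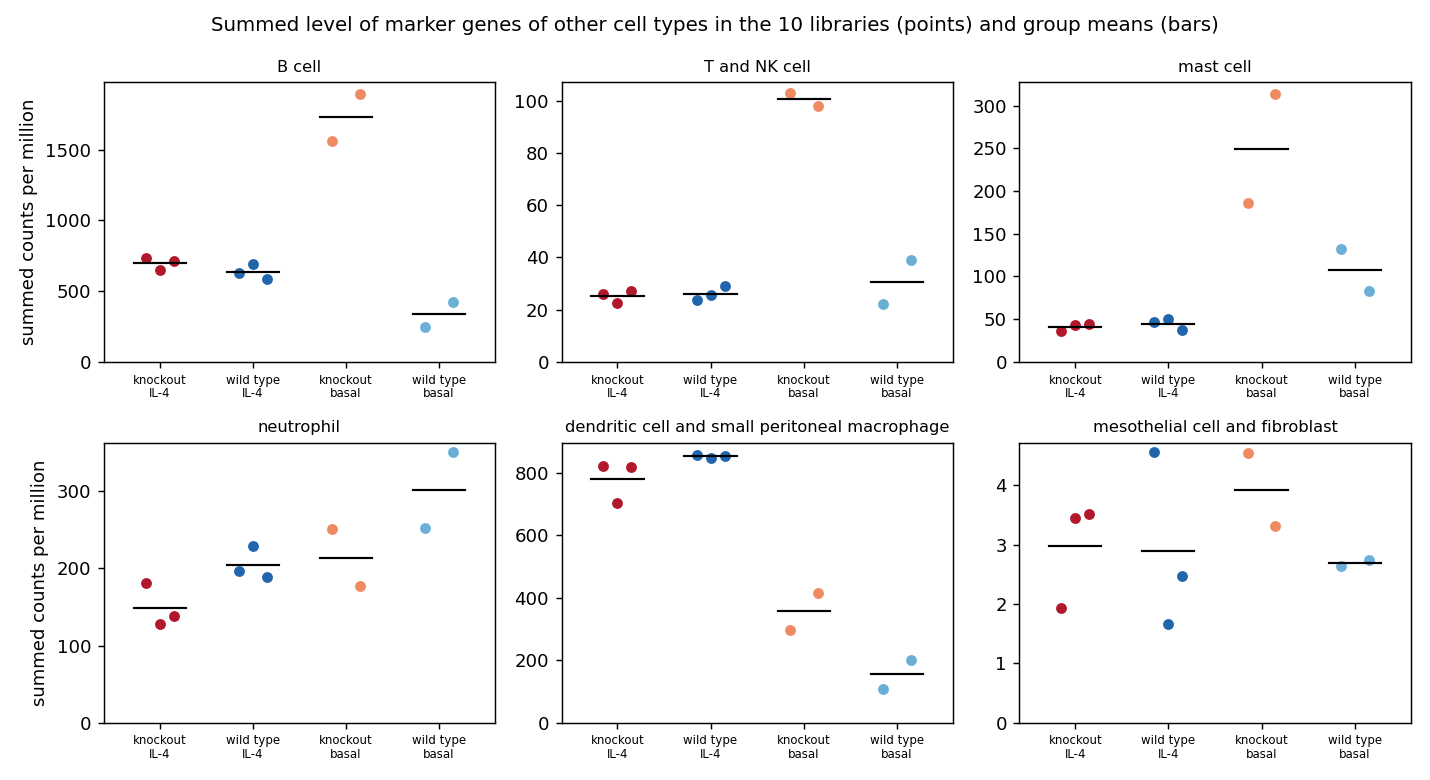
Summed CPM of 6 lists of marker genes of other cell types (vertical axes, linear, from 0) by group (horizontal axes), with 1 point per library and a bar at the group mean. The basal knockout libraries stand above all others for B cell, T and NK cell and mast cell markers, and the mesothelial and fibroblast sums stay under 5 CPM.

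Set on a common scale by exon length, the genes fell into a high and a low set, with Lrp1 between them. The mean levels in IL-4 knockout libraries were 121 CPM per kilobase of exon for Pros1, 117 for Timd4, 106 for Mertk, 17.1 for Lrp1, 4.95 for Axl, 4.47 for Mfge8, 2.98 for Cd300lf, 1.58 for Stab1 and 0.848 for Gas6. In IL-4 wild-type libraries they were 139 CPM per kilobase for Timd4, 117 for Mertk, 59.6 for Pros1, 13.8 for Lrp1, 4.66 for Mfge8, 4.22 for Axl, 3.94 for Cd300lf, 2.76 for Stab1 and 1.30 for Gas6. Timd4, Pros1 and Mertk therefore led in both, each above at least 93.2% of the 11591 tested genes that have an exon length. In basal knockout libraries Timd4 averaged 128 CPM per kilobase, Pros1 121, Mertk 93.1, Lrp1 17.9, Mfge8 7.88, Cd300lf 5.00, Stab1 3.98, Axl 1.56 and Gas6 0.408. In basal wild-type libraries the mean was 132 CPM per kilobase for Pros1, 119 for Timd4, 68.3 for Mertk, 15.9 for Lrp1, 6.34 for Mfge8, 3.82 for Cd300lf, 2.28 for Axl, 1.64 for Stab1 and 0.0185 for Gas6. Neighbours overlapped in several places: Pros1 with Timd4 in 3 groups, Timd4 with Mertk in both IL-4 groups, Mfge8 with Axl in both IL-4 groups, Mfge8 with Cd300lf in IL-4 knockout libraries, Axl with Cd300lf in IL-4 wild-type libraries, and Cd300lf with Stab1 in IL-4 wild-type and basal knockout libraries. No other neighbours in these orders overlapped. Lrp1 stood apart from its neighbours in every group, with a highest library of 23.7 CPM per kilobase, against a lowest of 53.4 for the 3 leading genes.

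**Figure D2:**
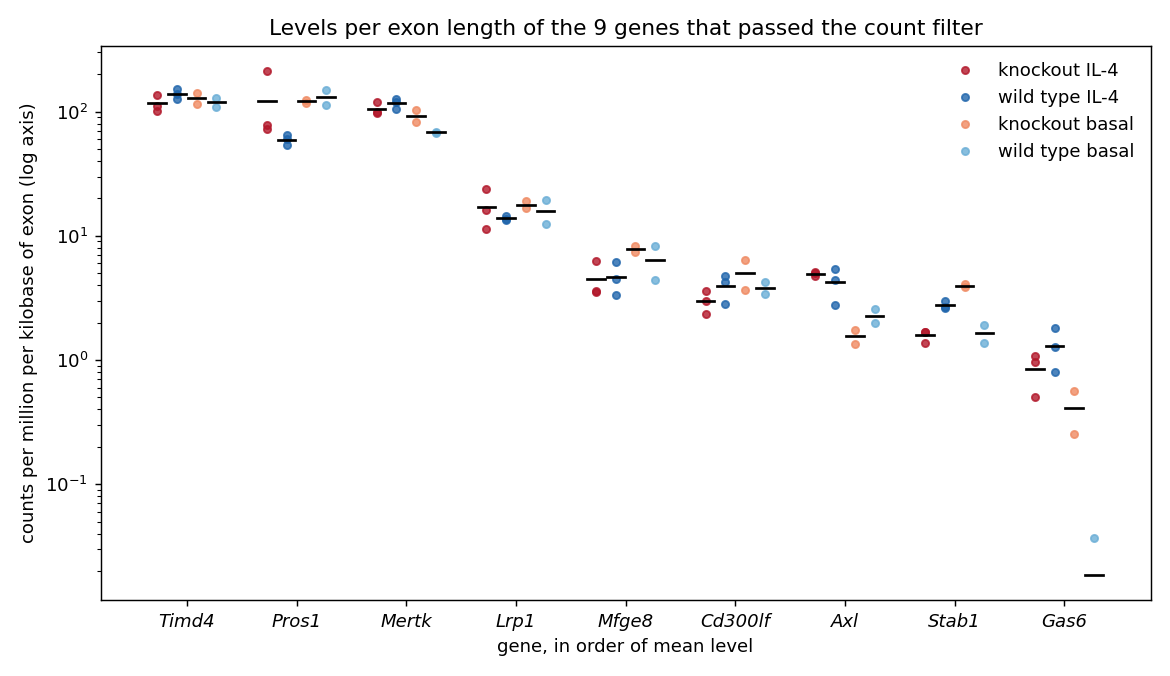
CPM per kilobase of exon (vertical axis, log scale) of 9 genes in order of mean level (horizontal axis), with 1 point per library, coloured by group, and a bar at the group mean. Timd4, Pros1 and Mertk lie above Lrp1, whose highest library is at 23.7, and Gas6 is lowest in each group. Tyro3 is left out, and the 1 Gas6 value of 0, in a basal wild-type library, has no point on the log axis.

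The stretches before the transcription starts are shown for the 4 genes that passed a test in at least 1 comparison (Stab1, Axl, Mertk, Gas6) and for Pros1, the only member with a STAT6-type palindrome, since STAT6 is the transcription factor that IL-4 activates. Each line gives the 250 bases before the RefSeq start on GRCm38.p6, 5′ to 3′ on the strand of the gene, with matches to the motifs searched in capitals. The windows are chr14:31168642-31168891 on the minus strand for Stab1, chr7:25788734-25788983 on the minus strand for Axl, chr2:128698665-128698914 on the plus strand for Mertk, chr8:13494536-13494785 on the minus strand for Gas6 and chr16:62854057-62854306 on the plus strand for Pros1.
Stab1: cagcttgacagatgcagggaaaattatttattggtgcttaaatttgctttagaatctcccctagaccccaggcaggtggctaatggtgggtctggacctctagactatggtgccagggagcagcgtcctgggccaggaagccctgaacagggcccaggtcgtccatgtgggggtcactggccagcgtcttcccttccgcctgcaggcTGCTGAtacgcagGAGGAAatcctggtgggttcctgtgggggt
Axl: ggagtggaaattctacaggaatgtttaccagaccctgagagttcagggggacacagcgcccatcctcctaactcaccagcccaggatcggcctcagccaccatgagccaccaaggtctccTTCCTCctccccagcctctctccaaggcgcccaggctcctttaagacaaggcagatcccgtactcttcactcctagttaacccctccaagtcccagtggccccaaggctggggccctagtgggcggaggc
Mertk: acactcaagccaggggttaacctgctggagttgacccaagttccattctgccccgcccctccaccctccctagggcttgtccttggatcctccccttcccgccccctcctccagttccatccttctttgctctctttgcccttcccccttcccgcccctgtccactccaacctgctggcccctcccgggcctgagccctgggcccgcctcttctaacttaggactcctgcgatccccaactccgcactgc
Gas6: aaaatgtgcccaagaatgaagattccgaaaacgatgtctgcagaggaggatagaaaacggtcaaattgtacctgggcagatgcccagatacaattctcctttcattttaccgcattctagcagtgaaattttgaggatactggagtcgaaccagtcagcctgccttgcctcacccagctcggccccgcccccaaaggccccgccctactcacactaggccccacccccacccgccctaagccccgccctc
Pros1: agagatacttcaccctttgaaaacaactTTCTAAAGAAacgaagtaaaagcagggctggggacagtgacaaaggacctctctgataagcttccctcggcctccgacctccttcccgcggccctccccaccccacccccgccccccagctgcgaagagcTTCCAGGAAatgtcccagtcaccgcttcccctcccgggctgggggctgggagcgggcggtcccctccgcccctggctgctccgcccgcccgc
Both strands of all 10 members' windows were searched for 7 motifs, and 32851 windows of the same length gave the background. The STAT6-type palindrome, TTC and GAA around any 4 bases, was present in 5.85% of all windows and in 1 of 10 members, as TTCTAAAGAA 222 to 213 bases before the start of Pros1. TTCNNNGAA, the interferon-gamma-activated site, was in 7.02% of windows and in Pros1 and Lrp1. GAGGAA, an ETS core of the PU.1 type, was in 23.3% of windows and in Axl, Mfge8, Stab1 and Cd300lf. TGCTGA, part of the element bound by MAF proteins, was in 16.1% of windows and in Timd4 and Stab1, and AGGTCA, a core site of nuclear receptors, was in 14% of windows and in Timd4. The motif of GATA factors that was searched for, AGATAA, was in 9.99% of windows and in no member. The E-box of the TFEB type, CACGTG, was in 6.02% of windows and in no member. No capitals appear in the Mertk and Gas6 lines because none of the 7 motifs matched there. A match is a description of letters in this window and shows no binding.

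Mertk, the TAM kinase best known for the uptake of apoptotic cells by macrophages (chr2:128698956-128802894, mm10), was the most abundant of its family. Its level was 433, 420 and 520 CPM in IL-4 knockout libraries and 452, 551 and 523 CPM in IL-4 wild-type libraries. It was 356 and 451 CPM in basal knockout libraries and 299 and 293 CPM in basal wild-type libraries. The basal wild-type libraries were the lowest of the 10 and overlapped with no other group. With IL-4, Mertk rose 1.72-fold in wild-type cells (log2 0.78 ± 0.21, adjusted p = 0.0351 by edgeR's quasi-likelihood test with Benjamini-Hochberg adjustment over 11614 genes). In knockout cells the IL-4 change was log2 0.18 ± 0.20 (adjusted p = 0.643) with overlapping libraries, and the 2 responses were not told apart by the interaction test, which compares them directly (knockout minus wild type, log2 -0.60 ± 0.28, 95% interval -1.30 to 0.10, adjusted p = 0.331). Knockout and wild type differed by log2 -0.15 ± 0.18 after IL-4 (95% interval -0.59 to 0.29, adjusted p = 0.750) and by log2 0.45 ± 0.22 without it (adjusted p = 0.309). The wild-type call was lost on leaving out any 1 of the 5 wild-type libraries, with an adjusted p of 0.125 or 0.167 without basal wild-type replicate 1 or 2 and 0.0523, 0.107 or 0.101 without IL-4 wild-type replicate 1, 2 or 3.

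Axl, the TAM kinase that is usually low in resident peritoneal macrophages (chr7:25757273-25788705), was far scarcer. It stood at 25.1, 25.7 and 24.0 CPM in IL-4 knockout libraries and at 27.4, 22.3 and 14.0 CPM in IL-4 wild-type libraries. It was at 6.81 and 8.86 CPM in basal knockout libraries and, in basal wild-type libraries, at 12.9 and 10.02 CPM. Each IL-4 library was above each basal library, and the basal knockout pair was below the basal wild-type pair. In knockout cells Axl rose 3.17-fold with IL-4 (log2 1.67 ± 0.32, adjusted p = 0.00498), while in wild-type cells the change was log2 0.89 ± 0.31 (adjusted p = 0.104). The interaction was log2 0.78 ± 0.43 (95% interval -0.28 to 1.84, adjusted p = 0.423), so a difference between the genotypes' responses was not shown. Without basal knockout replicate 1 the call in knockout cells was lost (adjusted p = 0.0793).

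Set per exon length, Mertk exceeded Axl in every library. The ratio was 18.9 to 25.2 in IL-4 knockout libraries, 19.1 to 43.4 in IL-4 wild-type libraries, 59.1 and 60.7 in basal knockout libraries and 26.8 and 34.0 in basal wild-type libraries. The basal knockout pair had the 2 highest ratios of the 10. Tyro3, the TAM kinase of neurons and of several immune cells (chr2:119797733-119818104), had 0 counts in 9 libraries and 4 counts, 0.343 CPM, in basal wild-type replicate 2. A count of 0 allows up to 3 counts, which is 0.199 to 0.324 CPM across these 9 libraries, and this limit covers counting error only. Tyro3 was not tested in any comparison, because it did not pass the filter on low counts.

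Gas6, the ligand of all 3 TAM kinases (chr8:13465374-13494490), was the scarcest tested member. IL-4 knockout libraries held 24, 36 and 16 counts, or 2.44, 2.76 and 1.28 CPM, and IL-4 wild-type libraries held 24, 49 and 45 counts, or 2.03, 3.26 and 4.63 CPM. Basal knockout libraries held 6 and 16 counts, or 0.649 and 1.43 CPM, and basal wild-type libraries 1 and 0 counts. The basal wild-type pair was below all other libraries. Gas6 rose with IL-4 in wild-type cells (adjusted p = 0.00729), with 118 counts after IL-4 against 1 without, a ratio of 71.8 after scaling to library size (95% counting interval 12.6 to 2861). Without IL-4, knockout libraries held 22 counts against 1 in wild-type libraries, a ratio of 24.0 (95% counting interval 3.88 to 990), which did not pass the test over all genes (adjusted p = 0.0699). The adjusted p was 0.462 for IL-4 in knockout cells, 0.714 for knockout against wild type after IL-4 and 0.0842 for the interaction. The call in wild-type cells was lost without basal wild-type replicate 2 (adjusted p = 0.0695), and 34 exonic bases of Gas6 are shared with Tmem255b on the other strand.

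Pros1, the gene of protein S, a plasma anticoagulant that also binds TYRO3 and MERTK (chr16:62854307-62929346), was far more abundant than Gas6. Its level was 322, 297 and 867 CPM in IL-4 knockout libraries and 265, 248 and 218 CPM in IL-4 wild-type libraries. Without IL-4 it was 509 and 478 CPM in knockout libraries and 461 and 615 CPM in wild-type libraries. IL-4 knockout replicate 3 was the highest of all 10 libraries, while the IL-4 wild-type libraries were the 3 lowest and overlapped with no other group. IL-4 against basal in wild-type cells gave log2 -1.14 ± 0.36 (adjusted p = 0.0819), and knockout against wild type after IL-4 gave log2 1.02 ± 0.33 (adjusted p = 0.183), so that neither passed. Without IL-4 knockout replicate 3 the fall in wild-type cells was log2 -1.14 ± 0.19 and passed (adjusted p = 0.00336), and the difference between genotypes after IL-4 was log2 0.34 ± 0.20 (adjusted p = 0.537). The change with IL-4 in knockout cells was log2 0.00 ± 0.37 with that library (adjusted p = 0.997) and -0.67 ± 0.22 without it (adjusted p = 0.0890), and the interaction was log2 1.15 ± 0.52 with it (adjusted p = 0.316) and 0.47 ± 0.29 without it (adjusted p = 0.516). The ratio of Pros1 to Gas6 per exon length ranged from 67.0 to 421 in IL-4 knockout libraries, from 29.4 to 81.3 in IL-4 wild-type libraries and from 208 to 489 in basal knockout libraries. It was 3042 in basal wild-type replicate 1, where Gas6 had a single count, and could not be formed in replicate 2.

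**Figure D3:**
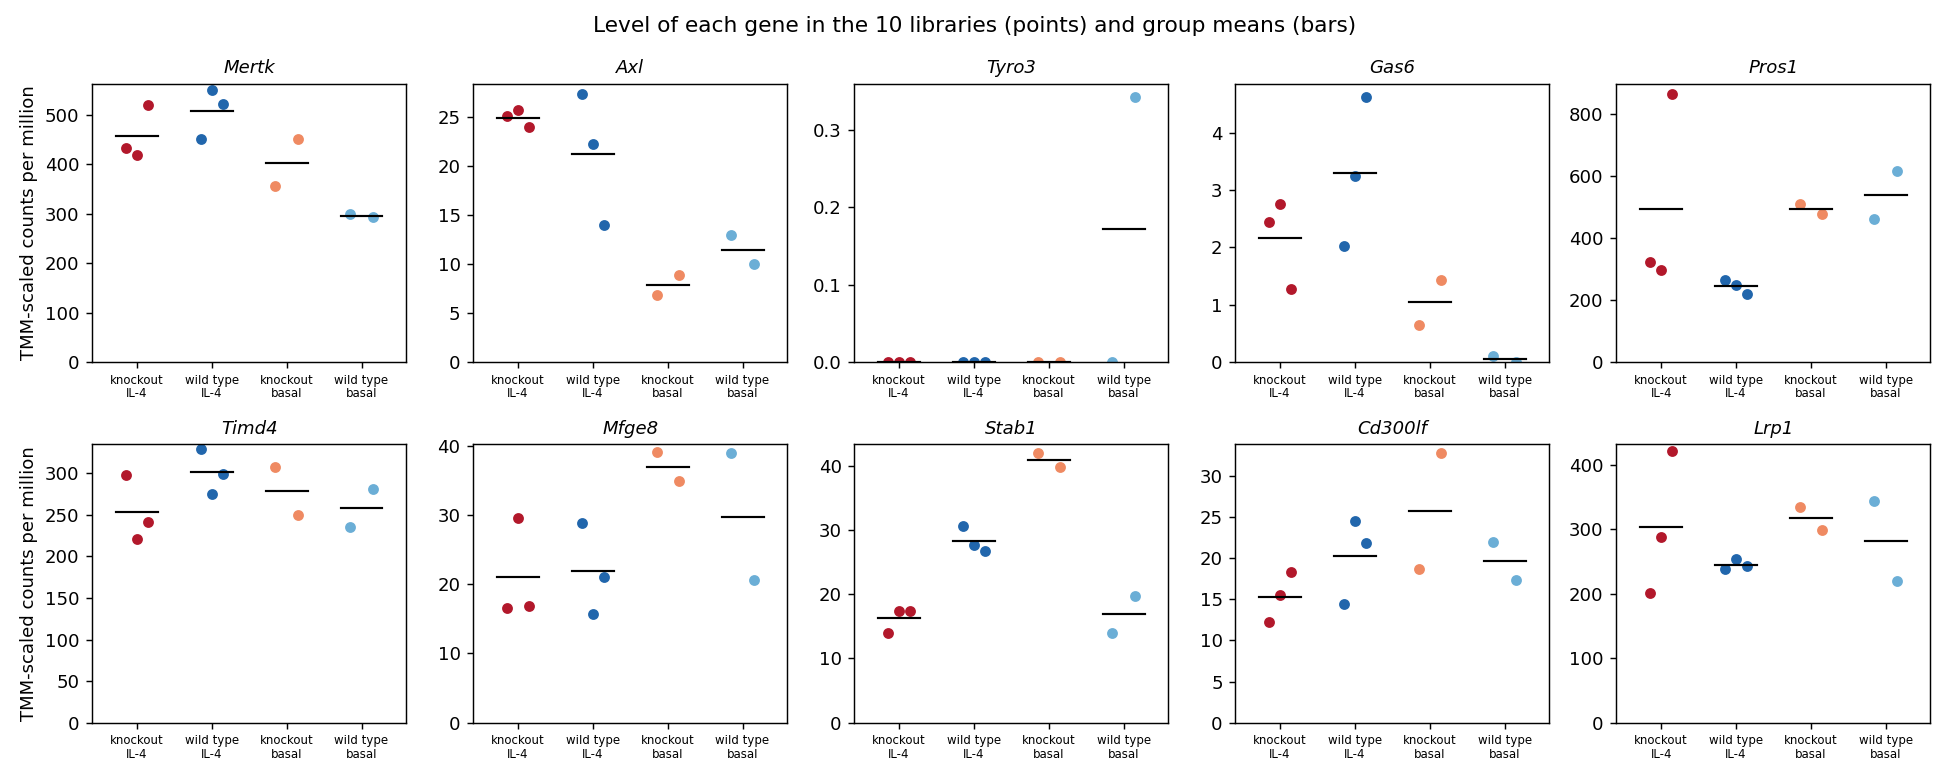
TMM-scaled CPM (vertical axes, linear, from 0, scaled separately for each gene) of the 10 genes by group (horizontal axes), with 1 point per library and a bar at the group mean. Stab1 is highest in the basal knockout pair, at 42.0 and 39.9 CPM, and every IL-4 library lies above every basal library for Axl. One IL-4 knockout library, at 867 CPM, sets the group mean of Pros1.

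Stab1, the gene of stabilin-1, a scavenger receptor of phosphatidylserine, acetylated lipoproteins and SPARC (chr14:31139013-31168641), was the only tested member whose response to IL-4 differed between the genotypes by the interaction test. Its level was 14.0, 17.4 and 17.4 CPM in IL-4 knockout libraries and 30.6, 27.7 and 26.8 CPM in IL-4 wild-type libraries. In basal knockout libraries it was 42.0 and 39.9 CPM and in basal wild-type libraries 14.0 and 19.8 CPM. The IL-4 knockout and basal wild-type libraries overlapped at the low end, and the IL-4 wild-type libraries lay between them and the basal knockout pair. Without IL-4, knockout libraries were 2.42-fold higher than wild-type ones (log2 1.28 ± 0.28, adjusted p = 0.0167). With IL-4, Stab1 fell in knockout cells (2.51-fold lower, log2 -1.33 ± 0.25, adjusted p = 0.00390), while the change in wild-type cells was log2 0.75 ± 0.26 (adjusted p = 0.0996). The 2 responses differed (interaction log2 -2.08 ± 0.36, 95% interval -2.96 to -1.19, adjusted p = 0.00488), which ranked 76th by p among 11614 genes. After IL-4, knockout against wild type gave log2 -0.80 ± 0.23 with no overlap (adjusted p = 0.111), which passed with DESeq2 (adjusted p = 0.0339).

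The interaction and the fall in knockout cells kept their calls without any 1 library, but the basal difference lost its call without basal knockout replicate 1 (adjusted p = 0.0977) or 2 (0.0738) or basal wild-type replicate 1 (0.111). Stab1 shares 112 exonic bases with Nt5dc2 on the other strand, and the strand setting of the counting is not given in the sources used here. The basal knockout pair, where Stab1 was highest, also had the highest sums of B cell, T and NK cell and mast cell markers. Most of its T and NK cell sum was Cd2. The part of those cells in the Stab1 levels was not tested.

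Timd4, the gene of the phosphatidylserine receptor that tethers apoptotic cells (chr11:46810800-46844332), varied least of the 9 tested members in its group means. It stood at 298, 220 and 241 CPM in IL-4 knockout libraries and 329, 275 and 300 CPM in IL-4 wild-type libraries. Basal knockout libraries held 307 and 250 CPM and basal wild-type libraries 236 and 281 CPM. All groups compared overlapped. Knockout against wild type gave log2 -0.25 ± 0.19 after IL-4 (95% interval -0.71 to 0.21, adjusted p = 0.575) and 0.11 ± 0.23 without IL-4 (95% interval -0.46 to 0.68, adjusted p = 0.869). IL-4 against basal gave log2 -0.14 ± 0.21 in knockout cells (adjusted p = 0.749) and 0.22 ± 0.21 in wild-type cells (adjusted p = 0.609). The interaction for Timd4 was log2 -0.36 ± 0.30 (adjusted p = 0.631).

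Cd300lf, the gene of a phosphatidylserine receptor with inhibitory signalling motifs (chr11:115116214-115133992), was a low member. It stood at 12.2, 15.5 and 18.3 CPM in IL-4 knockout libraries and 14.5, 24.5 and 21.8 CPM in IL-4 wild-type libraries. Without IL-4 it was at 18.7 and 32.8 CPM in knockout libraries and at 22.0 and 17.4 CPM in wild-type libraries. The IL-4 knockout libraries were below the basal knockout pair, by a narrow margin against replicate 1, and the other groups compared overlapped. The IL-4 change was log2 -0.75 ± 0.32 in knockout cells (adjusted p = 0.170) and 0.04 ± 0.32 in wild-type cells (adjusted p = 0.959). Genotypes differed by log2 -0.40 ± 0.29 after IL-4 (adjusted p = 0.550) and 0.39 ± 0.35 without it (adjusted p = 0.624), and the interaction was log2 -0.79 ± 0.45 (adjusted p = 0.435).

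Mfge8, which encodes the bridge between phosphatidylserine and alpha-v integrins (chr7:79133768-79149060), stood at 16.6, 29.6 and 16.8 CPM in IL-4 knockout libraries and 28.8, 15.8 and 21.0 CPM in IL-4 wild-type libraries. Basal knockout libraries held 39.0 and 35.0 CPM and basal wild-type libraries 39.0 and 20.6 CPM. The IL-4 knockout libraries lay below the basal knockout pair, and the other groups compared overlapped. The IL-4 change of Mfge8 was log2 -0.82 ± 0.34 in knockout cells (95% interval -1.65 to 0.02, adjusted p = 0.167) and -0.45 ± 0.34 in wild-type cells (adjusted p = 0.501). Genotypes differed by log2 -0.06 ± 0.31 after IL-4 (adjusted p = 0.957) and 0.31 ± 0.38 without it (adjusted p = 0.739), and the interaction was log2 -0.37 ± 0.49 (adjusted p = 0.786).

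Lrp1, the large endocytic receptor (chr10:127538161-127621148), stood at 202, 287 and 421 CPM in IL-4 knockout libraries and 238, 254 and 243 CPM in IL-4 wild-type libraries. Basal knockout libraries held 335 and 298 CPM and basal wild-type libraries 343 and 219 CPM. All groups compared overlapped, and the 3 IL-4 knockout libraries were spread most widely, with replicate 3, also the highest for Pros1, at the top. No change of Lrp1 passed: log2 was 0.31 ± 0.25 for knockout against wild type after IL-4 (adjusted p = 0.602), 0.17 ± 0.30 without IL-4 (adjusted p = 0.833), -0.06 ± 0.27 for IL-4 in knockout cells (adjusted p = 0.929), -0.20 ± 0.27 for IL-4 in wild-type cells (adjusted p = 0.743) and 0.14 ± 0.39 for the interaction (adjusted p = 0.916).

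**Figure D4:**
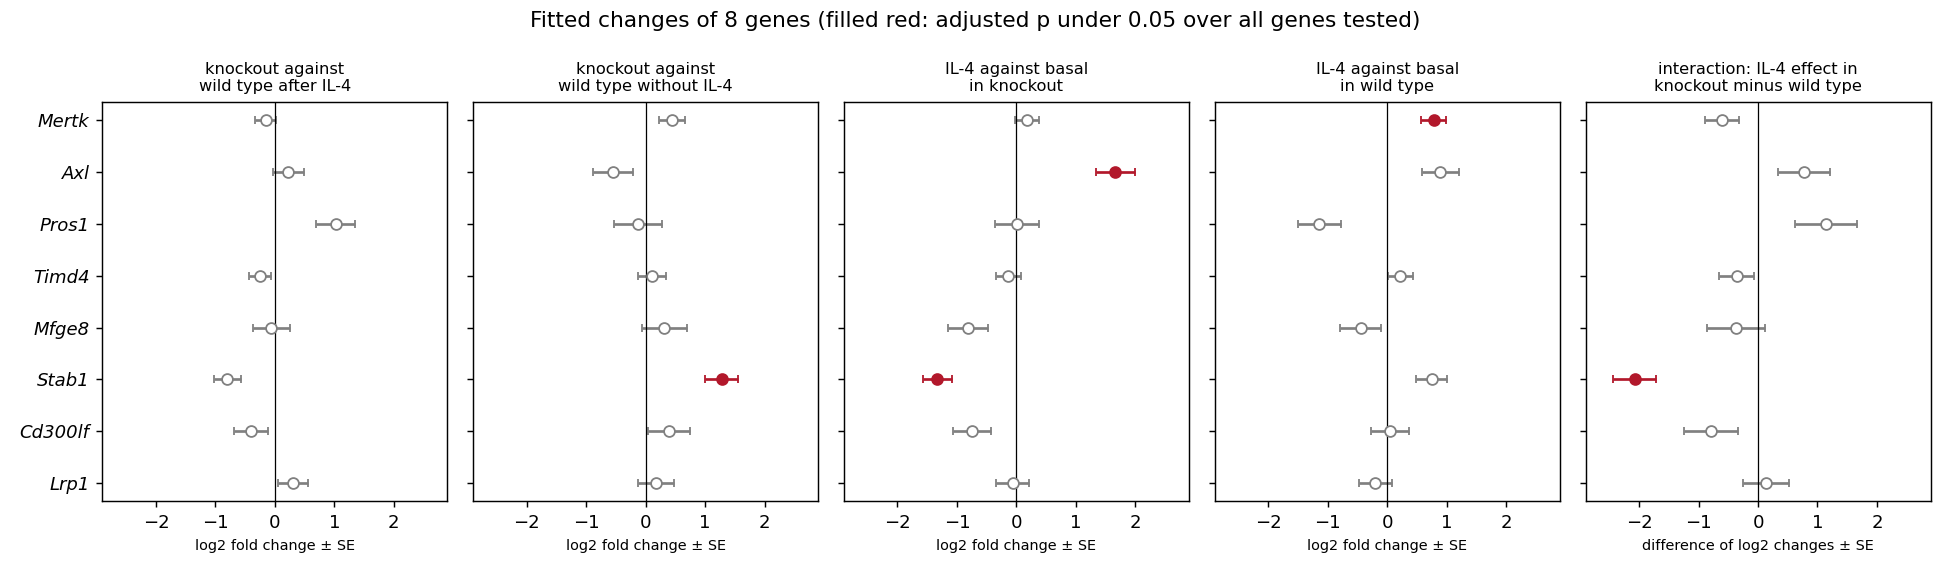
Fitted log2 fold changes with their standard errors (horizontal axes) of 8 genes (rows) in 5 comparisons (panels), where filled red points passed an adjusted p of 0.05 over all genes tested. Stab1 passed in 3 panels, with log2 1.28 for genotype without IL-4, -1.33 for IL-4 in knockout and -2.08 for the interaction. Tyro3 was not tested, and Gas6 is left out because its fitted change against 1 and 0 counts depends on the prior count.

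The counts of members that passed can be read against the shares of all 11614 genes that did. After IL-4, 0 of 9 tested members differed between knockout and wild type, where 0.827% of all genes did, 0.353% higher and 0.474% lower. At an unadjusted p under 0.05 there were 2 members, Pros1 and Stab1 (14.4% of all genes). DESeq2 called 1, Stab1 (3.78% of the 10713 genes with a DESeq2 adjusted p). The libraries of the same 2 members did not overlap between genotypes (20.3% of all genes). Without IL-4, 1 of 9 passed, Stab1, which was higher in knockout (4.14% of all genes passed, 2.61% higher and 1.53% lower). There 4 members did not overlap, Mertk, Gas6 and Stab1 above and Axl below wild type (48.2% of all genes). With IL-4 in knockout cells, Axl rose and Stab1 fell, 2 of 9 (7.60% of all genes passed, 4.09% higher and 3.51% lower), and 4 members did not overlap, Axl above and Mfge8, Stab1 and Cd300lf below the basal libraries (39.6% of all genes). With IL-4 in wild-type cells, Mertk and Gas6 rose and 0 members fell (6.06% of all genes passed, 3.26% higher and 2.80% lower). At an unadjusted p under 0.05 there were 5 members (21.3% of all genes), and DESeq2 called 3 higher and 1, Pros1, lower (10.2% of all genes). Here 5 members did not overlap, Mertk, Axl, Gas6 and Stab1 above and Pros1 below the basal libraries (40.2% of all genes). In the interaction 1 of 9 passed, Stab1, with a lower response in knockout (2.81% of all genes passed, 1.02% higher and 1.78% lower). The median log2 over the 9 tested members was -0.15 after IL-4 and 0.31 without IL-4 for genotype, -0.06 in knockout and 0.22 in wild type for IL-4, and -0.37 for the interaction, while the medians over all genes lay between -0.02 and 0.02. The genotype and IL-4 comparisons share libraries, and their values are set side by side only.

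The other genes of the same route were taken from 7 lists with 147 genes, of which 123 were tested. After IL-4, 0 of these 123 genes differed between knockout and wild type by edgeR's test (0.827% of all genes). At an unadjusted p under 0.05 there were 15 (14.4% of all genes). DESeq2 called 1 higher and 4 lower (3.78% of the 10713 genes with a DESeq2 adjusted p). The smallest p among engulfment signalling genes was that of Vav3, a Rac exchange factor, with means of 50.8 CPM in IL-4 knockout and 117 CPM in IL-4 wild-type libraries (log2 -1.20 ± 0.28, adjusted p = 0.0563). Among negative regulators it was Socs3, a TAM-induced suppressor of cytokine signalling, with 34.6 CPM in IL-4 knockout and 63.2 CPM in IL-4 wild-type libraries (adjusted p = 0.0583). Among digestion genes it was Abca1, the cholesterol exporter used after uptake, with 188 CPM in IL-4 knockout and 90.0 CPM in IL-4 wild-type libraries (adjusted p = 0.0622). For the other 4 lists, the genes with the smallest p were Marco (94.2 CPM in IL-4 knockout and 269 CPM in IL-4 wild-type libraries, adjusted p = 0.0895), Fcna (160 and 256 CPM in the same groups, adjusted p = 0.128), Klf4 (1058 and 724 CPM, adjusted p = 0.214) and S1pr4 (5.28 and 7.16 CPM, adjusted p = 0.549).

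Without IL-4, 7 of the 123 were higher and 3 lower in knockout than in wild-type libraries, or 8.13% (4.14% of all genes, 2.61% higher and 1.53% lower). Of the 23 other uptake receptors, 1 rose and 1 fell: Cd93, a C-type lectin-like receptor of myeloid cells (810 CPM in basal knockout and 383 CPM in basal wild-type libraries, log2 1.08 ± 0.21, adjusted p = 0.00714), and Cd300ld, a relative of Cd300lf (192 CPM in basal knockout and 372 CPM in basal wild-type libraries, log2 -0.96 ± 0.23, adjusted p = 0.0298). Of the 12 tested genes listed with the bridging molecules, 1 was higher in knockout: Anxa5, which encodes a phosphatidylserine-binding annexin. It was at 29.1 CPM in basal knockout and 10.2 CPM in basal wild-type libraries (adjusted p = 0.0175). Its role in uptake was not tested here. Of 15 sensors of find-me and keep-away signals, 4 were higher in knockout, among them Siglecg, S1pr4 and the fractalkine receptor Cx3cr1 (14.2 CPM in basal knockout and 6.20 CPM in basal wild-type libraries, adjusted p = 0.0332). Siglecg, which B cells also express, was at 133 CPM in basal knockout and 11.2 CPM in basal wild-type libraries, and all 10 B cell markers were higher in basal knockout as well; their part in it was not tested. Id2, a repressor of helix-loop-helix factors, was lower in knockout, with 611 CPM in basal knockout and 1888 CPM in basal wild-type libraries (log2 -1.63 ± 0.23, adjusted p = 6.04e-04), and so was Vav3 (41.1 and 101 CPM in these groups, adjusted p = 0.0432). Rubcn, whose protein is needed for LC3-associated phagocytosis, was higher in knockout (28.7 CPM in basal knockout and 11.6 CPM in basal wild-type libraries, adjusted p = 0.0400). None of the 13 tested TAM feedback, shedding and negative regulator genes passed, with 4 at an unadjusted p under 0.05 (17.7% of all genes) and 1 called by DESeq2 (7.71% of all genes). Siglecg and Id2 kept their calls without any 1 library, whereas Cd93, Cd300ld, Anxa5, S1pr4, Cx3cr1, Vav3 and Rubcn lost theirs in 2 to 5 of 10 such fits, where the highest adjusted p, from 0.0800 to 0.247, came without basal knockout replicate 1 or 2 or basal wild-type replicate 1 or 2.

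IL-4 in knockout cells raised 8 of the 123 genes and lowered 6, or 11.4% (7.60% of all genes, 4.09% higher and 3.51% lower). The complement gene C3 rose to 363 CPM in IL-4 knockout libraries, against 88.5 CPM in basal knockout ones (log2 2.04 ± 0.30, adjusted p = 5.98e-04), and C1qa, a chain of the complement bridge C1q, fell to 839 CPM in IL-4 knockout libraries, against 1675 CPM in basal knockout ones (adjusted p = 0.0123). Of 14 transcription factors, 3 rose and 1 fell, among them Klf4, with 1058 CPM in IL-4 knockout and 260 CPM in basal knockout libraries (log2 2.02 ± 0.24, adjusted p = 9.58e-05), and Klf2, with 633 CPM in IL-4 knockout and 1242 CPM in basal knockout libraries (adjusted p = 0.00801). Among the uptake receptors, Trem2, a lipid receptor, fell to 5.43 CPM in IL-4 knockout, against 19.1 CPM in basal knockout libraries (adjusted p = 0.0110), while Cd300ld rose (adjusted p = 0.0286). In the engulfment signalling list, Dock1, the ELMO partner that activates Rac, rose to 94.2 CPM in IL-4 knockout, against 47.5 CPM in basal knockout libraries (adjusted p = 0.0253), and Vav1 fell (adjusted p = 0.00930). Slc2a1, the glucose transporter GLUT1, fell to 6.06 CPM in IL-4 knockout, against 25.1 CPM in basal knockout libraries (adjusted p = 0.00400). Siglecg fell to 26.3 CPM in IL-4 knockout, against 133 CPM in basal knockout libraries, and 9 of 10 B cell markers fell as well. Without any 1 library C3, Klf4 and Siglecg kept their calls. C1qa, Klf2, Trem2, Cd300ld, Dock1, Vav1 and Slc2a1 lost theirs in 1 to 3 of 10 such fits, with highest adjusted p from 0.0585 to 0.244 without basal knockout replicate 1 or 2.

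IL-4 in wild-type cells raised 11 of the 123 genes and lowered 4, or 12.2% (6.06% of all genes, 3.26% higher and 2.80% lower). C3 rose here too (282 CPM in IL-4 wild-type and 80.4 CPM in basal wild-type libraries, log2 1.81 ± 0.30, adjusted p = 0.00249), and C1qa fell (781 CPM in IL-4 wild-type and 1499 CPM in basal wild-type libraries, adjusted p = 0.0201). Cd93 rose to 956 CPM in IL-4 wild-type, against 383 CPM in basal wild-type libraries (log2 1.32 ± 0.20, adjusted p = 0.00120), and Marco, a scavenger receptor, to 269 CPM, against 63.7 CPM (adjusted p = 0.0179). Timd2, a relative of Timd4, averaged 5.43 CPM in IL-4 wild-type libraries and had 0 counts in basal wild-type libraries (adjusted p = 0.00221), and it also rose in knockout cells (3.21 CPM in IL-4 knockout and 0.261 CPM in basal knockout libraries, adjusted p = 0.0239). Maf, a transcription factor of mature macrophages, rose to 818 CPM in IL-4 wild-type, against 262 CPM in basal wild-type libraries (log2 1.64 ± 0.24, adjusted p = 0.00101), and Cx3cr1 to 24.6 CPM, against 6.20 CPM (adjusted p = 8.21e-04). Lrpap1, the chaperone of LRP1, fell to 67.7 CPM in IL-4 wild-type, against 132 CPM in basal wild-type libraries (adjusted p = 0.0331). Dnase2a, the lysosomal nuclease that digests DNA of engulfed cells, rose to 115 CPM in IL-4 wild-type, against 53.0 CPM in basal wild-type libraries (adjusted p = 0.0125). C3, Cd93, Timd2, Maf and Cx3cr1 kept their wild-type calls without any 1 library. C1qa, Marco, Lrpap1 and Dnase2a lost theirs in 2 to 4 of 10 such fits, with highest adjusted p of 0.0915, 0.127, 0.418 and 0.113 in that order, each without basal wild-type replicate 1 or 2. Timd2 in knockout cells lost its call in 4 of 10 fits (adjusted p up to 0.196, without basal knockout replicate 2).

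In the interaction, 2 of the 123 had a higher and 3 a lower IL-4 response in knockout than in wild-type cells, or 4.07% (2.81% of all genes, 1.02% higher and 1.78% lower). Those higher were Id2 (log2 1.98 ± 0.29, adjusted p = 0.00162) and Cd300ld (log2 1.51 ± 0.30, adjusted p = 0.0108). Those lower were Siglecg (log2 -3.80 ± 0.37, adjusted p = 7.19e-05), S1pr4 (log2 -2.09 ± 0.50, adjusted p = 0.0326) and Cd93 (log2 -1.16 ± 0.27, adjusted p = 0.0267). Id2 and Siglecg kept their calls in all 10 fits that left out a library. Cd300ld kept its call in 8 of 10 (highest adjusted p 0.0795, without basal knockout replicate 1), and Cd93 and S1pr4 in only 4 of 10 each (highest adjusted p 0.122 without basal knockout replicate 1 and 0.118 without replicate 2). Of the 10 B cell markers 9 had a lower response in knockout too, and their part in the Siglecg value was not tested.

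The 2 members with the widest range of group means were Gas6 and Axl. Over the 10 libraries, the genes of at least 10 CPM whose log2 level was most like that of Gas6 were Cx3cr1 (Pearson's r 0.959), Kdm6b (0.949) and Slc12a7 (0.945). For Axl they were the cell cycle genes Ube2c (0.964) and Pclaf (0.954) and the iron regulator Hfe (0.947). These values are a description over the 10 libraries of 4 groups, so differences between the groups enter them. They are the highest found among 7496 genes. Gas6 had 1 and 0 counts in the basal wild-type libraries, so its range and its correlations depend on the prior count of 2.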

How the data were processed

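Read counts per gene and library were used as deposited. Per the submitters' processing notes, the authors aligned reads to mm10 with STAR and counted them with HTSeq. Versions, annotation and strand setting are not given in the sources used here. Symbols, coordinates and merged exon lengths came from GENCODE M21, and 420 of 22165 identifiers had no symbol. The members, gene lists, motifs and tests were chosen with earlier results of these data known. Levels of the targeted gene are not reported here.

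Genes were kept with filterByExpr of edgeR 4.0.16 under R 4.3.3 (minimum count 10, minimum total 15), which left 11614. Counts were scaled with TMM factors, and CPM uses the scaled library sizes. One quasi-likelihood fit with robust dispersion covered all 10 libraries as 4 group means, with 6 residual degrees of freedom and a biological coefficient of variation of 28.4%. Tests were two-sided, and the threshold was 0.05 after Benjamini-Hochberg adjustment across the whole set of tested genes. Positive log2 values mean higher in knockout or higher with IL-4. The number after ± is the standard error, taken as the absolute log2 value over the square root of the test's F. The 95% intervals of log2 values use the t distribution with the residual degrees of freedom. The test adds degrees of freedom from the spread of all genes, so these intervals are wider than its p implies. For the interaction, the wild-type log2 change with IL-4 was subtracted from the knockout one. Ratios of counts carry exact 95% intervals that cover counting error only. The test was also run on simulated data.

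All members were described in every comparison. From each list of other genes up to 3 passing genes with the smallest p were eligible to be named, or the 1 with the smallest p where none passed. Alternatives were DESeq2 1.42.0 size factors and its test, library totals, no filter on low counts, a replicate block, a fit of only the groups compared, and leaving out each library. Windows and figures were made in Python 3.11.15.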

Additional observations from a re-analysis of the deposited data

Results flagged for a closer look

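Several genes responded to IL-4 differently in knockout and wild-type cells, by the test of the difference itself. For Stab1 the interaction was log2 -2.08, with 16.3 ± 1.96 CPM in IL-4 knockout, 28.4 ± 2.01 CPM in IL-4 wild-type, 40.9 ± 1.46 CPM in basal knockout and 16.9 ± 4.11 CPM in basal wild-type libraries (SD, n = 3 in each IL-4 group and 2 in each basal group). Among the other genes of the route, the interaction was log2 1.51 for Cd300ld, -1.16 for Cd93, -3.80 for Siglecg, -2.09 for S1pr4 and 1.98 for Id2. Of 10 fits that each left out a library, the calls of Cd93 and S1pr4 held in only 4 each and that of Cd300ld in 8, while those of Stab1, Siglecg and Id2 held in all 10. The summed B cell markers were highest in the basal knockout pair, which enters each of these differences, and their part was not tested.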

How the results depend on the processing

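The number of genes that passed depended on the tool and on the filter on low counts. Against 96 genes for genotype after IL-4, 481 without IL-4, 883 for IL-4 in knockout, 704 in wild type and 326 for the interaction, the numbers were 505, 1034, 1423, 1209 and 819 with no filter, and 405, 895, 1371, 1185 and 623 with DESeq2. Without a filter 14756 genes and all 10 members were tested, and the no-filter numbers above are out of these genes. There 1 member passed for genotype after IL-4 (Pros1) and 2 without IL-4 (Stab1 and Gas6). For IL-4 in wild type 3 passed (Mertk, Gas6 and Pros1, the last lower with adjusted p = 1.33e-04). For the interaction 3 passed as well (Stab1, Gas6 and Pros1). A fit of only the groups compared also gave 3 for IL-4 in wild type, with Pros1 lower (0.00439), and the fall of Pros1 there passed in 6 of 16 alternatives. DESeq2 called 1 member for genotype after IL-4 (Stab1) and 4 for IL-4 in wild type. Scaling to library totals moved the median of all genes to log2 0.13 for genotype without IL-4, -0.10 for IL-4 in knockout and -0.17 for the interaction. The share of higher genes among those that passed then became 79.3% (63.0% with TMM), 42.0% (53.8%) and 25.1% (36.5%), and 65.3% (53.8%) for IL-4 in wild type. Directions turned for members near 0: with library totals Pros1 was log2 0.033 for genotype without IL-4 and -0.11 for IL-4 in knockout, and Lrp1 was -0.028 for the interaction. In each case the cause was not tested.

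Libraries with the same replicate number did not deviate together (13 pairs, correlations -0.110 to 0.0620). In 0 of the 10 did a library correlate best with its own number. The labels do not say whether a number marks a shared animal, day or preparation. These correlations cannot decide it, because the 2 libraries of a basal group deviate as mirror images and the pairs are not independent. With the replicate number as a block, 554 genes passed for IL-4 in knockout, Pros1 turned to log2 -0.37 there, Cd300lf turned to -0.12 for IL-4 in wild type, Mertk in wild type missed the threshold (adjusted p = 0.0924) and Pros1 passed (0.0419). A fit of only the groups compared cannot be made for the interaction, which needs all 4.

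Leaving out 1 library at a time gave 21 to 129 genes for genotype after IL-4, 208 to 550 without IL-4, 327 to 931 for IL-4 in knockout, 302 to 764 in wild type and 182 to 397 for the interaction. Of the members, 0 to 0, 0 to 1, 1 to 2, 0 to 3 and 1 to 1 passed. Members whose sign turned in some of these fits had these log2 ranges: for genotype after IL-4, Axl -0.00254 to 0.45, Lrp1 -0.00378 to 0.52 and Mfge8 -0.39 to 0.20; without IL-4, Cd300lf -0.075 to 0.74, Lrp1 -0.12 to 0.54, Mfge8 -0.080 to 0.86, Pros1 -0.31 to 0.10 and Timd4 -0.047 to 0.25; for IL-4 in knockout, Lrp1 -0.37 to 0.15, Pros1 -0.67 to 0.27 and Timd4 -0.28 to 0.017; in wild type, Cd300lf -0.12 to 0.24, Lrp1 -0.49 to 0.17 and Mfge8 -0.84 to 0.10; for the interaction, Lrp1 -0.25 to 0.42 and Mfge8 -0.92 to 0.017. None of these passed in the fit of all libraries. A basal group then held a lone library, whose spread was assumed equal to that of the remaining groups. The interaction of Stab1 passed under all 15 alternatives run (log2 -2.35 to -1.87) and its fall with IL-4 in knockout cells under all 16 (log2 -1.43 to -1.24). Depth limits Gas6 and Tyro3, with at most 49 and 4 counts in a library.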

Other observations

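Of the 5 tested neutrophil markers, 3 were lower in IL-4 knockout than in IL-4 wild-type libraries (0.474% of all genes were lower). Lyz2, which neutrophils also express, was 4096, 3504 and 2845 CPM in IL-4 knockout, against 7046, 5912 and 6457 CPM in IL-4 wild-type libraries. Only the knockout groups carry Cre driven from this locus, so effects of that allele and of cell content cannot be told apart for Lyz2. The 9 macrophage identity markers other than Lyz2 summed to 6125 to 6705 CPM in IL-4 knockout, 6842 to 7193 CPM in IL-4 wild-type, 6666 to 6781 CPM in basal knockout and 8413 to 9967 CPM in basal wild-type libraries. The 5 eosinophil markers summed to 3.35 to 8.57 CPM in IL-4 knockout, 1.52 to 3.92 CPM in IL-4 wild-type, 5.72 to 6.16 CPM in basal knockout and 1.04 to 3.17 CPM in basal wild-type libraries, with Epx, Prg2 and Ear6 at 0 in every group. Of the 4 platelet markers, Ppbp and Gp9 were at 0 in every group, and the sum, almost all Pf4, was 539 to 718 CPM in IL-4 knockout, 644 to 882 CPM in IL-4 wild-type, 825 to 897 CPM in basal knockout and 417 to 669 CPM in basal wild-type libraries.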
